A study of Homo sapiens with 12 samples.

Results

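Leukocyte integrins are the adhesion receptors with which blood cells grip vessel walls, matrix and each other. The 9 genes described here were taken by symbol from the mRNA table: ITGB2 and its alpha partners ITGAM, ITGAX and ITGAL, ITGB1 with ITGA4 and ITGA5, and ITGB7 with ITGAE. Each symbol matched 1 gene, so 9 of 19659 genes and 57 of 83027 transcripts were followed. RNA depleted of ribosomal RNA was sequenced from cells labelled HEL, a human erythroleukaemia line grown in medium with serum. The DMAG group had 3 days with 40 µg/ml DMAG, a methylated ellagic acid glucoside from the burnet Sanguisorba officinalis, and the Control group has no dose, day or vehicle recorded. There were 3 RNA-Seq libraries per group, and whether each was a culture of its own is not recorded. A p-value here therefore speaks of library-to-library spread, which may be technical.

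An integrin is a pair of 1 alpha and 1 beta chain, and neither reaches the cell surface well without a partner. Signals inside the cell switch the pair to a form that binds ligand (inside-out activation, through talin and kindlin on the beta tail), and bound ligand sends signals back through kinases and small GTPases (outside-in signalling). Myeloid cells are known for ITGAM and ITGAX paired with ITGB2, and lymphocytes for ITGAL with ITGB2 and for the ITGB7 pairs. Levels are in FPKM (fragments relative to transcript length and to library size), added up over a gene's transcripts. A mean ± SD is over the 3 libraries of a group. The depth of the libraries is unknown.

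The cell label was checked against markers of its lineages. Of 11 megakaryocyte and platelet markers, 10 averaged under 0.5 FPKM, the level below which a gene was not tested; the exception was GP1BB. Of 13 erythroid markers 7 were below that level, and HBB, HBA1, HBA2 and ALAS2 were above it only through DMAG replicate 3. GATA1, a master factor of both lineages, lay at 0 to 0.142 FPKM with DMAG and 0.0350 to 0.0738 FPKM in Control libraries. EPOR and TFRC were present in every library. DMAG replicate 3 stood apart in HBB, with 1367 FPKM there, 0.0731 FPKM in DMAG replicate 1 and 0 elsewhere, and likewise in HBA1, HBA2 and ALAS2. The values of the integrins without that library are given where they change a call. Some granule genes of the myeloid series were abundant, with MPO at 815 ± 82.9 FPKM with DMAG and 1089 ± 29.1 FPKM in Control libraries. Others were not: ELANE was at 6.92 ± 0.930 FPKM with DMAG and 17.2 ± 2.47 FPKM in Control libraries. Of 9 neutrophil granule markers 4 averaged under 0.5 FPKM. GP9, a platelet glycoprotein, was listed at 0 in all 6 libraries. The defining markers GATA1 and GP9 were thus at or near 0, and the cells are called here by their label only.

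Of the 9 integrin genes 4 rose with DMAG, 3 fell and 2 did not pass (limma on log2(FPKM + 1), adjusted p under 0.05). This stands against a background in which 48.6% of 10394 genes tested were called, 22.4% higher and 26.1% lower with DMAG. The 2 groups of libraries did not overlap for 8 of the 9, against 59.5% of genes tested. Of these, 5 were higher with DMAG (27.9% of genes tested) and 3 lower (31.6%). All 9 averaged at least 0.5 FPKM and were tested. Their median log2 change was 0.11, beside -0.01 for all genes tested. In bulk RNA, a change in the share of cells that carry an mRNA and a change in the mRNA per cell cannot be told apart.

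**Figure D1:**
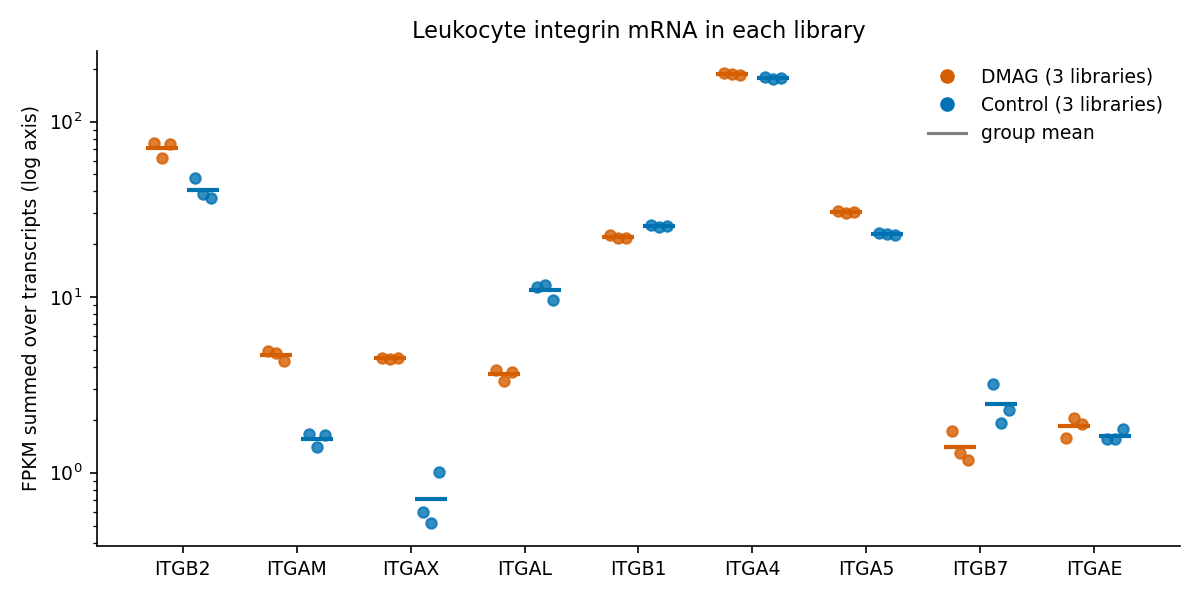
Each point is 1 library, with its FPKM on a log axis; DMAG libraries are orange, Control libraries blue, and bars are group means. ITGAM and ITGAX lay between 4.30 and 4.92 FPKM with DMAG, above the Control libraries at 0.516 to 1.66 FPKM, while ITGAL lay the other way round and ITGAE overlapped.

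ITGB2 (ENSG00000160255, chr21:44885953-44928815, GRCh38.p14) encodes the beta chain shared by ITGAM, ITGAX and ITGAL, whose loss in humans causes leukocyte adhesion deficiency. It was at 75.3, 61.9 and 74.3 FPKM in the DMAG libraries, against 47.6, 38.6 and 36.7 FPKM in the Control libraries. The lowest DMAG library was thus above the highest Control library. ITGB2 rose 1.72-fold (log2 change 0.77, SE 0.12, limma adjusted p = 0.0027). It remained the second most abundant of the 9 in both groups, below ITGA4.

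ITGAM (ENSG00000169896, chr16:31259975-31332877), the alpha chain of complement receptor CR3 and a marker of maturing myeloid cells, was at 4.92, 4.81 and 4.30 FPKM with DMAG. In the Control libraries it was at 1.66, 1.41 and 1.63 FPKM. ITGAM rose 2.99-fold (log2 change 1.15, SE 0.07, limma adjusted p = 1.3e-04), and 140 of the genes tested had a larger rise. ITGAX (ENSG00000140678, chr16:31355176-31382999), the alpha chain of CR4 that is widely used as a dendritic cell and macrophage marker, was at 4.49, 4.47 and 4.51 FPKM with DMAG, against 0.599, 0.516 and 1.01 FPKM in Control libraries. Its DMAG libraries lay close together, and the Control spread came mainly from replicate 3. ITGAX rose 6.33-fold (log2 change 1.69, SE 0.11, adjusted p = 1.4e-04), the largest log2 rise among the 9, with 45 of the genes tested above it.

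ITGAL (ENSG00000005844, chr16:30472742-30523185), the alpha chain of LFA-1 that binds ICAM ligands, went the other way. It was at 3.83, 3.35 and 3.75 FPKM with DMAG, against 11.5, 11.7 and 9.66 FPKM in Control libraries. ITGAL was 3.00-fold lower (log2 change -1.36, SE 0.09, limma adjusted p = 1.2e-04), and 38 of the genes tested fell further. The alpha genes that rose are neighbours, with 22.3 kb between ITGAM and ITGAX, while ITGAL lies 737 kb from ITGAM on the same chromosome. ITGAD, the next gene beyond ITGAX, was at 0.00505 FPKM in DMAG replicate 1 and listed at 0 in the other 5 libraries.

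The makeup of the ITGB2 partners in mRNA therefore turned over, while their sums overlapped between the groups. Protein, pairing and surface levels are not part of these data. ITGAM, ITGAX and ITGAL together were at 12.8 ± 0.373 FPKM with DMAG and 13.2 ± 0.801 FPKM in Control libraries, which gave p = 0.40 (exact two-sided permutation test). ITGAL made up 28.4 ± 1.72% of this sum with DMAG and 82.7 ± 3.78% in Control libraries. ITGAM made up 36.5 ± 2.01% with DMAG and 11.9 ± 1.48% in Control libraries. ITGAX made up 35.1 ± 1.01% with DMAG and 5.46 ± 2.42% in Control libraries. None of these 3 shares overlapped between the groups, and each gave p = 0.10 by the exact permutation test, the smallest that 3 against 3 libraries allow. The 3 alpha genes were thus at similar levels with DMAG, where ITGAM and ITGAX overlapped and ITGAL lay just below them, whereas ITGAL was the most abundant of them in each Control library. ITGB2 exceeded the sum of the 3 by 5.50 ± 0.531 times with DMAG and 3.09 ± 0.335 times in Control libraries (exact permutation p = 0.10).

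**Figure D2:**
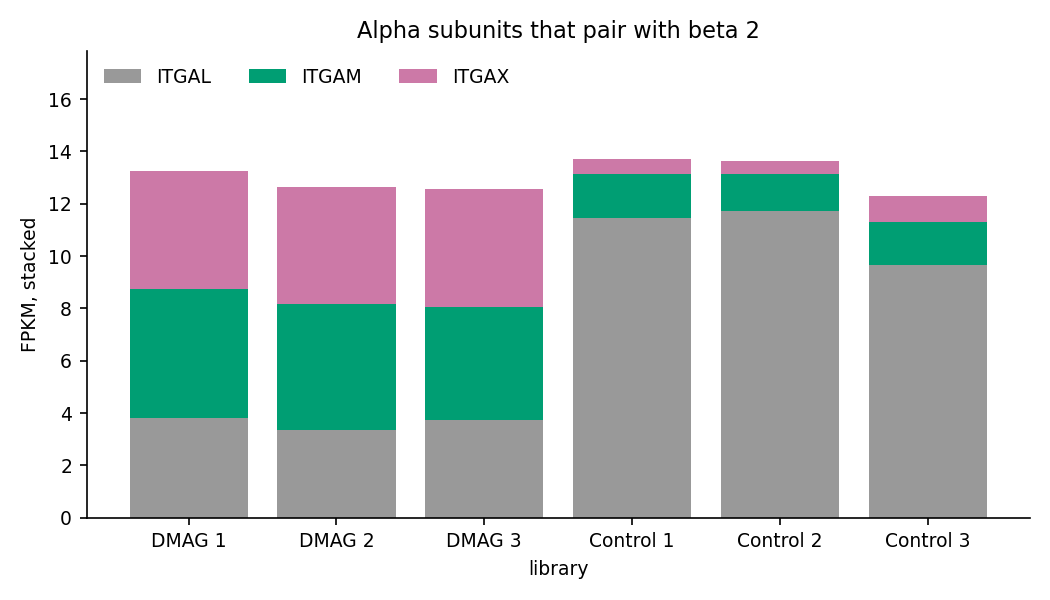
Stacked bars give the FPKM of ITGAL, ITGAM and ITGAX in each of the 6 libraries, DMAG on the left. The full height lies between 12.3 and 13.7 FPKM in all of them, while ITGAL takes 26.5 to 29.9% of it with DMAG and 78.5 to 85.9% in Control libraries.

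The deposited values also split each gene into transcripts, and for ITGB2 this split differed between libraries of the same group. ENST00000302347 held 70.8, 42.5 and 70.0% of ITGB2 in the DMAG libraries, against 63.5, 37.6 and 32.5% in the Control libraries. ENST00000397852 held 47.3% in DMAG replicate 2 and 48.8 and 56.1% in Control replicates 2 and 3. In the other 3 libraries it held at most 0.304%, and ENST00000320216 held 23.4 to 24.6% in its place. The summed level followed this split within each group: DMAG replicate 2 was the lowest DMAG library and Control replicate 1 the highest Control library. Among the libraries with ENST00000320216, ITGB2 was at 75.3 and 74.3 FPKM with DMAG and 47.6 FPKM in Control replicate 1. Among those with ENST00000397852 it was at 61.9 FPKM with DMAG and at 38.6 and 36.7 FPKM in Control libraries. ITGB2 was higher with DMAG on either side of the split. Taken alone, ENST00000302347 differed by 1.22 on the log2 scale and did not pass (limma adjusted p = 0.095).

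**Figure D3:**
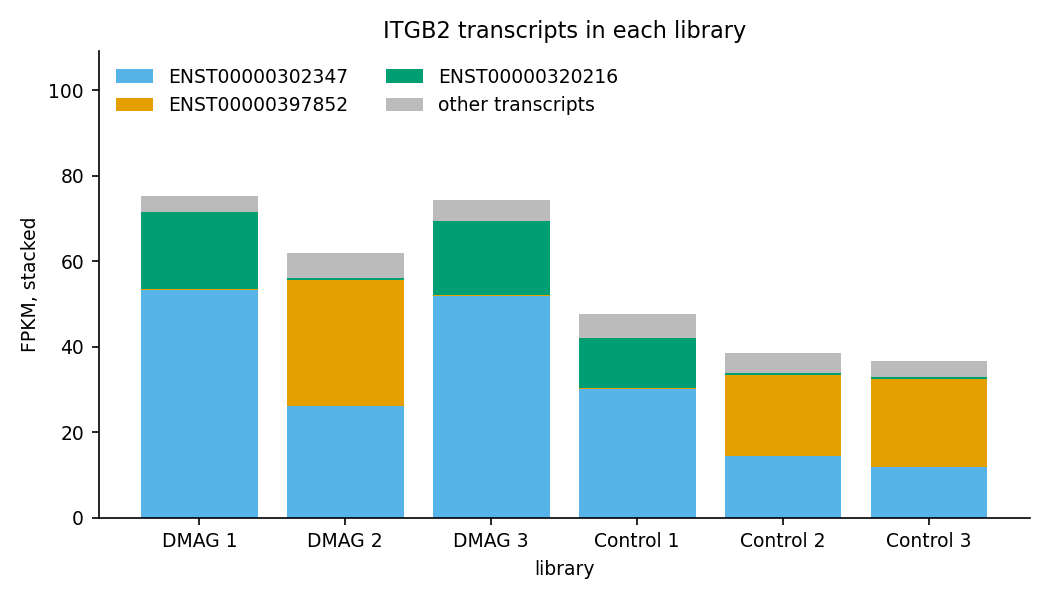
Stacked bars give the FPKM of the 3 main ITGB2 transcripts and of the other 12 together in each library, DMAG on the left. ENST00000397852 appears in DMAG replicate 2 and Control replicates 2 and 3 and is nearly missing from the other 3 libraries, while the full height is larger in every DMAG library.

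ITGAM showed a like split. ENST00000287497 held 83.1, 83.5 and 92.2% of ITGAM in the DMAG libraries, 87.8% in Control replicate 1 and 0% in Control replicates 2 and 3. There ENST00000648685 held 91.4 and 77.0%, against at most 0.841% in the DMAG libraries. The summed ITGAM level of the 3 Control libraries nonetheless lay within 1.41 and 1.66 FPKM. In ITGA4 the split was steady, with ENST00000233573 at 57.3 ± 0.856% with DMAG and 57.6 ± 1.19% in Control libraries. Gene sums were used except where a transcript taken alone is named.

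ITGB1 (ENSG00000150093, chr10:32900318-32958230) encodes the beta chain of the matrix-binding integrins. It was at 22.7, 21.8 and 21.7 FPKM with DMAG, against 25.7, 25.2 and 25.6 FPKM in Control libraries. ITGB1 was 1.16-fold lower (log2 change -0.20, SE 0.04, limma adjusted p = 0.0049), a small change without overlap. ITGA5 (ENSG00000161638, chr12:54395261-54419266), its partner in the fibronectin receptor, was at 30.9, 30.3 and 30.7 FPKM with DMAG, against 23.3, 22.9 and 22.7 FPKM in Control libraries. ITGA5 rose 1.33-fold (log2 change 0.40, SE 0.03, adjusted p = 2.6e-04). The order of these partners thus turned round: the ratio of ITGA5 to ITGB1 was 1.39 ± 0.0255 with DMAG and 0.901 ± 0.0127 in Control libraries (exact permutation p = 0.10).

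ITGA4 (ENSG00000115232, chr2:181457205-181538940), the alpha chain that binds VCAM1 and fibronectin and holds progenitors in the marrow, was by far the most abundant of the 9. It was at 189, 186 and 184 FPKM with DMAG, against 181, 174 and 178 FPKM in Control libraries. The groups did not overlap, but the log2 change of 0.07 (SE 0.03) did not pass (limma adjusted p = 0.11). ITGA4 exceeded ITGB1 by 8.45 ± 0.113 times with DMAG and 6.96 ± 0.0598 times in Control libraries (exact permutation p = 0.10). ITGB2 exceeded ITGB1 by 3.19 ± 0.309 times with DMAG and 1.61 ± 0.219 times in Control libraries (exact permutation p = 0.10).

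The calls of ITGA4, ITGB1 and ITGB7 (described next) turned on the scale of the libraries. The FPKM of nuclear genes summed to 314294 to 318664 in DMAG libraries and 336146 to 342409 in Control libraries. With each library brought to the same nuclear sum, on the same 10394 genes and at the same mean level, ITGA4 passed (log2 change 0.17, limma adjusted p = 0.0086). The log2 change of ITGB1 was -0.10 there (adjusted p = 0.076) and the log2 change of ITGB7 was -0.46 (adjusted p = 0.052), and neither passed. The median of all genes was shifted by 0.09, and 3239 genes were higher and 1889 lower, in place of 2333 and 2717. That setting was chosen after seeing the data. ITGAM, ITGAX, ITGB2 and ITGA5 remained higher and ITGAL lower there.

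**Figure D4:**
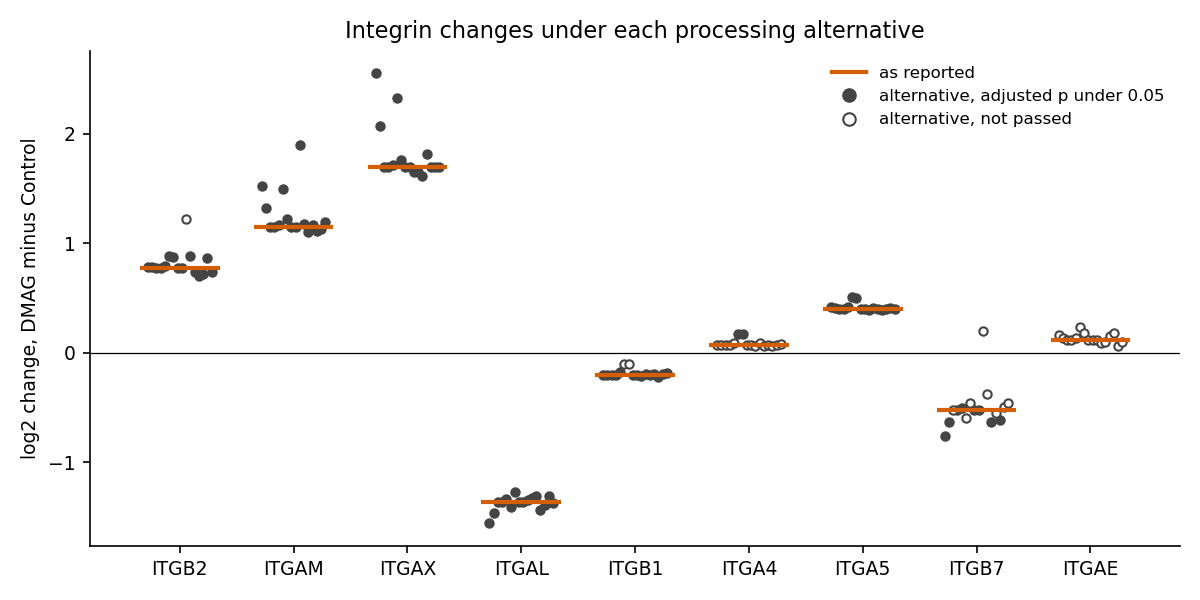
Each point is the log2 change (DMAG minus Control) of a gene under 1 of 16 alternatives, filled where the adjusted p was under 0.05 and open where not; the orange bar is the value as reported. ITGAM, ITGAX, ITGAL and ITGA5 have filled points throughout, ITGB2 has 1 open point and ITGB1 has 2, ITGA4 has 2 filled points, and ITGB7 has points on both sides of the threshold and 1 above 0.

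ITGB7 (ENSG00000139626, chr12:53191323-53207251), which pairs with ITGA4 for homing to gut and with ITGAE, was low. It was at 1.72, 1.29 and 1.18 FPKM with DMAG, against 3.19, 1.92 and 2.29 FPKM in Control libraries. ITGB7 was 1.76-fold lower (log2 change -0.52, SE 0.15, limma adjusted p = 0.033). This call was lost without Control replicate 1 or 3 or DMAG replicate 2 or 3 (adjusted p between 0.061 and 0.093). The most abundant ITGB7 transcript on average, ENST00000267082, taken alone, differed by 0.20 (adjusted p = 0.59). No ITGB7 transcript dominated in all libraries: ENST00000267082 averaged 0.573 FPKM and ENST00000422257 0.506 FPKM. ENST00000267082 was at 0.114 FPKM in Control replicate 1 and 1.16 FPKM in DMAG replicate 1. ITGB7 overlaps the gene ZNF740, which rose 1.14-fold (adjusted p = 0.025), a call lost in 5 of the 6 fits that leave out 1 library.

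ITGAE (ENSG00000083457, chr17:3714628-3801188), the alpha chain that binds E-cadherin on epithelium, was at 1.58, 2.04 and 1.91 FPKM with DMAG, against 1.55, 1.56 and 1.77 FPKM in Control libraries. The groups overlapped, and the log2 change of 0.11 (SE 0.09) did not pass (limma adjusted p = 0.32). The ITGAE locus holds HASPIN, a mitotic kinase gene, at 8.66 ± 0.204 FPKM with DMAG and 8.63 ± 0.311 FPKM in Control libraries. It also overlaps P2RX5, an ATP-gated channel gene, at 3.86 ± 0.467 FPKM with DMAG and 0.963 ± 0.254 FPKM in Control libraries. The library kit marks strand, but whether counting used it is not given in the sources used here, so reads of such overlaps may be shared. Other members overlap annotated genes too, ITGA5 with GPR84-AS1 over 24006 bases and ITGB2 with ITGB2-AS1 over 7781 bases. ITGAL overlaps ITGAL-AS1 and ITGA4 overlaps CERKL, so the same limit holds for these members.

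Ordered by level, the DMAG libraries had ITGA4, ITGB2, ITGA5, ITGB1, ITGAM, ITGAX, ITGAL, ITGAE and ITGB7. Neighbours in that order overlapped only for ITGAM with ITGAX and for ITGAE with ITGB7. The Control libraries had ITGA4, ITGB2, ITGB1, ITGA5, ITGAL, ITGB7, ITGAE, ITGAM and ITGAX, where only ITGAE and ITGAM overlapped as neighbours. FPKM is scaled per length, so these levels were set beside each other. Reads shared with overlapping genes, as described above, could shift this order.

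Upstream sequence was looked at for members that moved. RefSeq's promoter table (GRCh38.p14) matched 6 of the 9; ITGB2, ITGAX and ITGAL had no entry. The stretches of 280 bases run from 250 before the annotated start to 30 from the start onward, written 5′ to 3′ on the strand of the gene. ITGAM and ITGA5 are shown as genes that rose and ITGB7 as one that fell. Capitals mark matches, on either strand, to 3 short motifs: GAGGAA, the PU box bound by SPI1, TGTGGT, the core bound by RUNX factors, and TGANTCA, the AP-1 site.
ITGAM, chr16:31259725-31260004, plus strand: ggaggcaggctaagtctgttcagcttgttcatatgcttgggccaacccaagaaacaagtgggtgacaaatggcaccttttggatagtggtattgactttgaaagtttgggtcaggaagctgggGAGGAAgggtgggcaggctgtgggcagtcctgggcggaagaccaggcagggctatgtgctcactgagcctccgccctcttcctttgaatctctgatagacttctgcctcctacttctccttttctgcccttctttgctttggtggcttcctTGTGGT
ITGA5, chr12:54419237-54419516, minus strand: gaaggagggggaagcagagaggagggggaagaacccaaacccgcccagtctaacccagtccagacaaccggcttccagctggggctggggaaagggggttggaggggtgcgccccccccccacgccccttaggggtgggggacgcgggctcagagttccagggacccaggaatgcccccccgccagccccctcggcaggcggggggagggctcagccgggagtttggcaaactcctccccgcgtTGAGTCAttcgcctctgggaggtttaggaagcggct
ITGB7, chr12:53207222-53207501, minus strand: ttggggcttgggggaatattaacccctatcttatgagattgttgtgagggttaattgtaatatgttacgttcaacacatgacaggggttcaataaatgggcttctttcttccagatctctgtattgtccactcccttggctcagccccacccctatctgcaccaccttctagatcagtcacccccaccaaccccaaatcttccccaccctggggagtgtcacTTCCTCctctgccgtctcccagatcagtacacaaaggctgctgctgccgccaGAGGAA

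The ITGAM stretch held a PU box 127 to 122 bases before the start and a RUNX core after it. The ITGA5 stretch held an AP-1 match that ends on the start base, and the ITGB7 stretch held 2 PU boxes, 1 of them on the opposite strand. No 2 of these matches overlapped. The PU box was not limited to these: ITGB1, which fell slightly, held it 184 to 179 bases and ITGAE, which did not pass, 152 to 147 bases before the start, and ITGA4 held none of the 3 motifs. Among the 35116 promoters of the table, 26.2% held GAGGAA, 12.3% TGTGGT and 7.35% TGANTCA in the same stretch. The matches are descriptions of letters, common in promoters at large. The G and C content was 52.9% for ITGAM, 68.6% for ITGA5 and 50.7% for ITGB7.

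Transcription factors tied to integrin genes in myeloid cells were measured beside them. Of the 13 tested, 7 were higher (53.8%, against 22.4% of all genes tested), 2 lower (15.4%, against 26.1%) and 4 missed the threshold. Their median log2 change was 0.30, beside -0.01 for all genes. The 2 lower calls were 1 when any library but Control replicate 1 was left out. With 1 library left out, all genes tested had 2303 to 2443 lower calls, in place of 2717. SPI1, the ETS factor PU.1, was at 50.8 ± 3.71 FPKM with DMAG and 40.9 ± 2.31 FPKM in Control libraries (log2 change 0.30, limma adjusted p = 0.011). CEBPA, a granulocytic factor, was lower, at 125 ± 3.03 FPKM with DMAG and 174 ± 7.45 FPKM in Control libraries (log2 change -0.48, adjusted p = 3.4e-04). ETS1 rose 2.08-fold, MYB, a factor of immature cells, 1.56-fold, FLI1 1.44-fold and CEBPB 1.42-fold. IRF8, a monocyte factor, was at 0.152 FPKM in DMAG replicate 3 and listed at 0 in the other 5 libraries.

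The other integrin subunits were mostly silent. Of 17 listed, 15 averaged under 0.5 FPKM and 3 of these, ITGA3, ITGA8 and ITGB6, were listed at 0 in every library. ITGA6, a laminin receptor chain, rose 1.58-fold, with 5.18, 7.07 and 7.07 FPKM with DMAG against 4.05, 4.01 and 4.20 FPKM in Control libraries (log2 change 0.54, limma adjusted p = 0.0094). ITGAV, the alpha chain of vitronectin receptors, was lower, with 2.97, 3.13 and 3.17 FPKM with DMAG against 4.64, 4.25 and 4.76 FPKM in Control libraries (log2 change -0.44, adjusted p = 0.0019). ITGB3 and ITGB5, which are among several known partners of ITGAV, were at most 0.0253 FPKM in any library. ITGB1 was the only partner chain of ITGA6 above 0.5 FPKM on average.

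Ligands and the signalling machinery of integrins were taken as lists, whose counts are read against the 22.4% of all genes tested that were higher and the 26.1% that were lower. Of 20 ligands and counter-receptors 16 averaged under 0.5 FPKM over the 6 libraries. VCAM1, the ligand of ITGA4, was listed at 0 in all of them. ICAM1, the main ligand of LFA-1, was not tested, at 0.744, 0.543 and 0.559 FPKM with DMAG against 0.131, 0.132 and 0.0965 FPKM in Control libraries, without overlap. Of the other 4, ICAM2 rose 1.56-fold and ICAM4, known from red cells, 2.49-fold. ICAM3, a leukocyte ligand of LFA-1, was the most abundant, at 33.4 ± 2.34 FPKM with DMAG and 32.4 ± 1.36 FPKM in Control libraries (adjusted p = 0.59). F11R did not pass either.

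The 22 genes of inside-out activation tested held 8 that rose, 5 that fell and 9 that missed the threshold, with a median log2 change of 0.01. These are 36.4% higher and 22.7% lower. The lower calls were 2 without DMAG replicate 1 or 3 and 3 without Control replicate 2 or 3. All genes tested had 2303 to 2443 lower calls when 1 library was left out, in place of 2717. Rap1, a small GTPase that switches integrins on, has exchange factors in this list that moved both ways. RASGRP2 rose 1.60-fold (log2 change 0.66, limma adjusted p = 1.0e-04) and RAPGEF1 rose 1.21-fold. RASGRP3 (log2 change -0.52, adjusted p = 0.041) and RAPGEF6 (log2 change -0.16, adjusted p = 0.022) fell, each with its call lost in 5 of the 6 fits that leave out 1 library. RAP1A and RAP1B did not pass. APBB1IP, which links Rap1 to talin, rose 1.89-fold. RASSF5, the Rap1 effector RAPL, was at 30.2, 28.3 and 28.3 FPKM with DMAG against 10.5, 10.3 and 21.3 FPKM in Control libraries, and its call (adjusted p = 0.016) was lost without DMAG replicate 1 (adjusted p = 0.050). RAP1GDS1 was 1.40-fold lower. Talin itself (TLN1) rose 1.11-fold (adjusted p = 0.020), a call lost in 4 of those 6 fits, and the leukocyte kindlin FERMT3 did not pass (64.3 ± 4.97 FPKM with DMAG and 70.0 ± 4.19 FPKM in Control libraries, adjusted p = 0.20).

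The 12 negative regulators tested held 4 that rose, 3 that fell and 5 that missed the threshold, again with a median of 0.01. These are 33.3% higher and 25% lower. FLNA, the filamin that competes with talin for beta tails, was at 274 ± 5.70 FPKM with DMAG and 156 ± 6.70 FPKM in Control libraries (log2 change 0.82, limma adjusted p = 6.3e-05). RAP1GAP2, which switches Rap1 off, rose 2.62-fold and SIPA1L1 1.79-fold. The phosphatase PTPN6 was 1.46-fold lower. SIPA1 did not pass, at 18.2 ± 1.15 FPKM with DMAG and 19.9 ± 1.56 FPKM in Control libraries (adjusted p = 0.22). Some activators and some inhibitors of Rap1 were thus both among the genes that rose.

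The 26 outside-in signalling genes tested held 7 that rose, 5 that fell and 14 that missed the threshold, with a median of 0.01. These are 26.9% higher and 19.2% lower. The lower calls were 2 without Control replicate 2 or DMAG replicate 2 or 3, 3 without DMAG replicate 1, and 0 at the same nuclear sum. Among all genes tested lower calls fell as well, from 2717 to 1889 at the same nuclear sum. With 1 library left out they were 2303 to 2443. RAC2, a small GTPase of blood cells, was at 215 ± 4.85 FPKM with DMAG and 90.8 ± 3.34 FPKM in Control libraries (log2 change 1.23, limma adjusted p = 2.1e-05). The adaptors TYROBP, which carries signals of ITGB2 in myeloid cells, and LCP2 rose 2.38-fold and 1.62-fold, and RHOH rose 1.62-fold. The Src-family kinase LYN did not pass (log2 change 0.00, adjusted p = 0.94). Among 17 genes of folding, processing and trafficking tested, 4 were higher (23.5%), 1 lower (5.88%) and 12 missed the threshold. FURIN, a protease that cleaves some alpha chains, rose 1.37-fold and ARF6 1.23-fold. CNPY3 was lower, at 16.6 ± 0.928 FPKM with DMAG and 20.3 ± 0.487 FPKM in Control libraries. ACAP1 rose 1.13-fold (adjusted p = 0.040), a call lost in all leave-one-out fits except the one without Control replicate 1.

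Other adhesion molecules of leukocytes were listed too. Of the 12 tested, 6 were higher (50%), 1 lower (8.33%) and 5 missed the threshold, with a median log2 change of 0.37 beside -0.01 for all genes. CD226 rose 5.54-fold, CD58, the ligand of CD2, rose 2.58-fold, and CEACAM6 rose 3.43-fold. The member that fell was SELPLG, the selectin ligand PSGL-1, by 1.20-fold (adjusted p = 0.026). Its call was lost without Control replicate 1 or 3 or DMAG replicate 1 or 2 (adjusted p between 0.067 and 0.078) and at the same nuclear sum (adjusted p = 0.12). Over the 7 lists together 38 of 106 genes tested rose (35.8%, against 22.4% of all genes) and 17 fell (16.0%, against 26.1%), with a median of 0.10. The 17 became 11 without Control replicate 2 or DMAG replicate 2, 10 without DMAG replicate 1 or 3, and 8 at the same nuclear sum. Lower calls among all genes tested fell too, from 2717 to 1889 at the same nuclear sum. They were 2303 to 2443 when 1 library was left out.

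**Figure D5:**
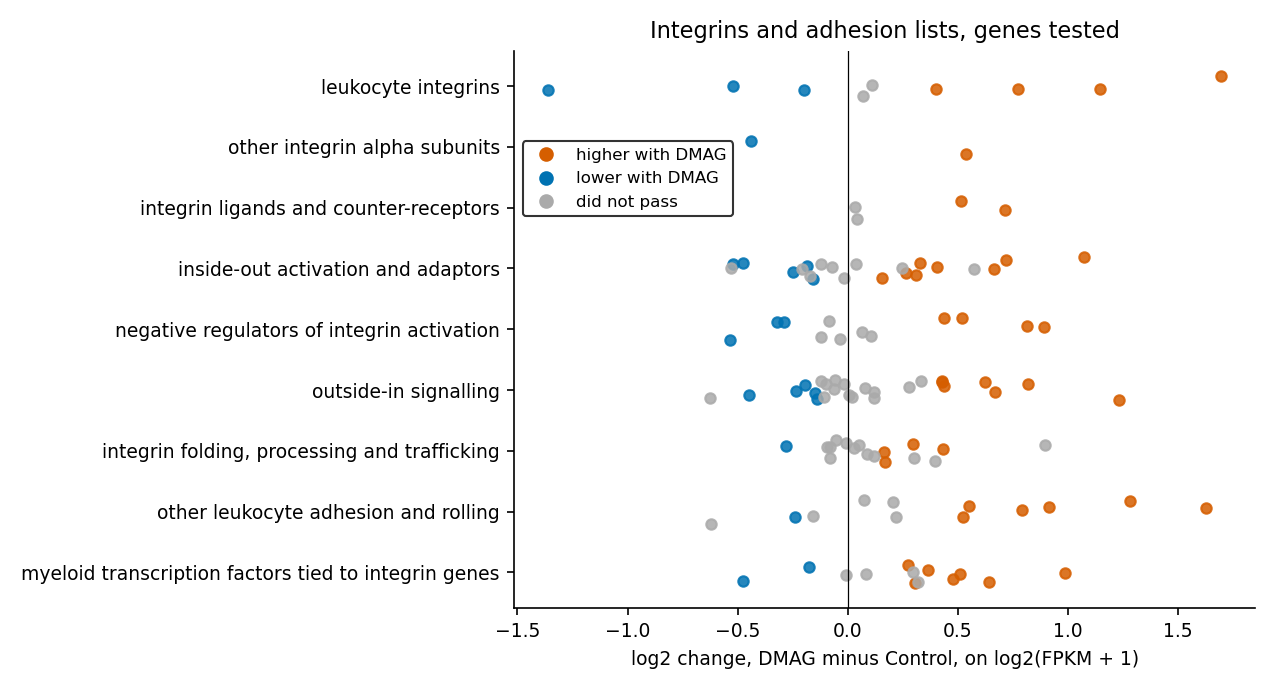
Each point is 1 gene tested, placed by its log2 change (DMAG minus Control) on log2(FPKM + 1) and coloured by its call; vertical scatter within a row has no meaning. The leukocyte integrins reach from -1.36 to 1.69, while the activation and signalling lists centre near 0 with genes called on both sides.

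Markers of cells that could carry these integrins were set beside them. Their counts are read against the 22.4% of all genes tested that were higher and the 26.1% that were lower. Few genes per list were tested: 3 monocyte and macrophage, 5 neutrophil granule and 6 eosinophil and basophil markers. Of 10 monocyte and macrophage markers 7 averaged under 0.5 FPKM, with CD14 at 0.361 to 0.503 FPKM with DMAG and 0 to 0.264 FPKM in Control libraries; LYZ and TLR4 rose and FCGR1A fell. The summed level of that list was 434 to 483 FPKM with DMAG and 169 to 174 FPKM in Control libraries, nearly all of it LYZ. Of 9 neutrophil granule markers 4 fell, 1 rose and 4 averaged under 0.5 FPKM, with a sum of 1057 to 1269 FPKM with DMAG and 2041 to 2211 FPKM in Control libraries. Of 9 eosinophil and basophil markers 3 rose, 1 fell, 2 did not pass and 3 averaged under 0.5 FPKM, with a sum of 2156 to 2599 FPKM with DMAG and 1816 to 2297 FPKM in Control libraries. The granule ribonucleases RNASE3 and RNASE2 rose 3.70-fold and 2.30-fold and CLC 1.64-fold, while the peroxidase EPX was 2.03-fold lower. PRG2, a granule protein gene that did not pass, was the most abundant, at 1693 ± 216 FPKM with DMAG and 1564 ± 253 FPKM in Control libraries. The T and NK cell markers had 8 of 10 under 0.5 FPKM on average, and CD3D, CD3E and CD3G were at most 0.0683 FPKM in any library. Of the 2 tested 1 did not pass and NKG7 was lower, at 4.64 ± 0.607 FPKM with DMAG and 5.84 ± 0.228 FPKM in Control libraries. The NKG7 call (limma adjusted p = 0.039) was lost in all leave-one-out fits except the one without DMAG replicate 3. That list summed to 22.8 to 23.8 FPKM with DMAG and 23.7 to 24.4 FPKM in Control libraries. The part of the myeloid markers in the integrin changes was not tested.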

How the data were processed

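Ribosomal RNA was removed and a dUTP step marked the strand, per the labels' protocols. HISAT2 2.0.4, Bowtie and StringTie 1.3.3 are listed with GRCh38, per the submitters' processing notes, without roles. The authors deposited FPKM values per transcript; how reads were counted is not given here, and the depth is unknown.

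FPKM was added up per gene. The 10394 genes averaging 0.5 FPKM or more entered limma 3.58.1 (empirical Bayes with mean trend, no block, R 4.3.3) on log2(FPKM + 1), a scale that understates the change of low genes. P-values were adjusted by Benjamini-Hochberg over all of them and called under 0.05. Folds are ratios of mean FPKM. Shares and ratios had an exact two-sided permutation test over libraries (scipy 1.17.1). The fit was tested on simulated data.

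The members and lists were chosen with earlier results of these data known. Named were all members, other subunits of at least 0.5 FPKM, SPI1, CEBPA, the 3 nearest profiles each for ITGAM and ITGB2, and per pathway list the 4 called genes with the largest log2 change among those of at least 1 FPKM in the higher group. TLN1, RASGRP3, RAPGEF1, RAPGEF6, RAP1A, RAP1B, FERMT3, ICAM1, ICAM3, VCAM1, F11R, LYN, SELPLG, IRF8, the low alpha and beta subunits, overlapping genes and markers were named after their values were seen, as was the sum of the 3 ITGB2 partners. The lncRNA, circular RNA and miRNA tables were not used here, so the planned lncRNA and circular RNA results are not given. Some genes that the naming rule or the marker lists hold are not reported here.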

Additional observations from a re-analysis of the deposited data

How the results depend on the processing

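The changes of ITGAM, ITGAX, ITGAL and ITGA5 kept their direction and call under all 16 alternatives, and ITGAE kept its direction without passing. ITGB2 did so except with its most abundant transcript alone (log2 change 1.22, adjusted p = 0.095). With libraries rescaled to a nuclear total of fixed size, which also raised the values beside the pseudocount and the genes tested to 11246 (3464 higher, 1929 lower), ITGA4 passed at 0.17, ITGB1 (-0.11) did not, and the log2 change of ITGB7 was -0.60 (adjusted p = 0.0503). With the same genes and mean level, ITGA4 was at 0.17, ITGB1 at -0.10 and the log2 change of ITGB7 at -0.46, with the same calls. ITGB7 also missed the threshold without a filter on low values (-0.52, adjusted p = 0.053) and turned round with its most abundant transcript alone (0.20). Leaving out 1 library at a time gave ITGB7 log2 changes between -0.64 and -0.38. The other subunits called were 2, but 6 without the filter and 6 with the nuclear total of fixed size, where more genes passed the filter; they were 2 with the same genes and mean level. Of the pathway lists 17 genes were lower, 9 with the nuclear total of fixed size, 8 with the same genes and mean level, and between 10 and 15 when 1 library was left out. Among all genes tested 2717 were lower, 1929 and 1889 at those nuclear totals, and 2303 to 2443 when 1 library was left out. The cause of the other shifts was not tested. Same-numbered libraries did not deviate together (correlations of -0.0048, 0.043 and 0.027), and with a replicate block 2053 genes were higher and 2438 lower, with no member's call changed. The planned lncRNA alternatives were not run.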

Other observations

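Some alpha subunits below the level tested also differed between the groups. Without the filter on low values, 33.4% of 15361 genes were called, 16.3% higher and 17.1% lower with DMAG. There ITGA7, ITGA9, ITGA10 and ITGA2B were higher with DMAG (limma, adjusted p = 4.5e-04, 0.0012, 0.0019 and 0.0078 in that order). ITGA1, ITGA2, ITGA11, ITGAD, ITGB3, ITGB4, ITGB5 and ITGB8, also below the level tested, were not called. ITGA9, a chain that binds tenascin and VCAM1, was at 0.375, 0.318 and 0.501 FPKM with DMAG, against 0.0201, 0 and 0 FPKM in Control libraries. ITGA7, a laminin receptor chain of muscle, was at 0.666, 0.623 and 0.686 FPKM with DMAG, against 0.247, 0.165 and 0.184 FPKM in Control libraries. ITGA10, a collagen receptor chain, was at 0.498, 0.417 and 0.488 FPKM with DMAG, against 0.226, 0.144 and 0.171 FPKM in Control libraries. Each of these 3 was higher in every DMAG library than in any Control library, as were 27.9% of the 10394 genes above the filter. That share was not counted without the filter.

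The genes whose profile lay nearest to that of ITGAM were LRRK2, RHOU and CAT. Nearness is the Euclidean distance between log2(FPKM + 1) profiles centred per gene over 6 libraries, among 10393 other genes, and their distances were 0.0669, 0.119 and 0.121. LRRK2, a large kinase expressed in myeloid cells, was at 1.97, 1.91 and 1.68 FPKM with DMAG, against 0.307, 0.152 and 0.284 FPKM in Control libraries. In mean FPKM LRRK2 rose 7.48-fold, beside 2.99-fold for ITGAM, since the log2(FPKM + 1) scale understates the change of low genes. RHOU, a small GTPase, rose 2.49-fold and CAT, catalase, 2.32-fold. Nearest to ITGB2 were GRN, the gene of progranulin, THBS3 and TAGLN, at distances of 0.166, 0.192 and 0.200. GRN was at 96.5, 91.8 and 98.8 FPKM with DMAG, against 63.3, 54.6 and 49.6 FPKM in Control libraries. DMAG replicate 2 and Control replicate 1 stood out in the same direction as for ITGB2, a likeness that the choice by nearest profile favours. Such nearness over 6 libraries in 2 groups is a description.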
